A study of Mus musculus with 12 samples.

Results

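The cytosolic ribosomal protein genes were followed in NKT (natural killer T) cells of the mouse thymus and liver. These are T cells whose receptor reads lipids on CD1d. The genes were chosen by symbol. All symbols that start with Rpl or Rps and go on with a digit were taken, together with Rpsa, Rplp0, Rplp1 and Rplp2, and Rps6k kinases and symbols holding "-ps" were left out. This gave 86 of the 23284 genes in each table, namely 31 small-subunit, 43 large-subunit and 3 stalk proteins, 8 paralogs, and Rps19bp1. The last gene shares only the symbol, since it encodes a nucleolar binding partner of Rps19 and no ribosomal protein. The 12 libraries form 4 groups of 3, all from C57BL/6 mice that carry the E8III-Cre transgene, which acts from the CD4+CD8+ double-positive (DP) stage of thymocytes. The cKO mice also carry floxed Rag2, so that their NKT cells derive from double-negative (DN) thymocytes. The YFP+ mice carry a Rosa26-loxP-STOP-loxP reporter that Cre switches on, so that YFP marks cells that passed the DP stage. The titles call these samples YFP+ NKT, which is read here as DP origin, though the sort markers given below do not name YFP. No treatment and no age is given in the sources used here. Cells were sorted as CD4- CD8- CD45R- 7AAD- CD1d dimer+ TCRb+, and cDNA was made from 10 ng of RNA of each sample. The 2 origins come from mice of different genotype, so origin and mouse cannot be told apart. Nothing says that the libraries of a group came from separate animals, and p-values then measure the spread among these libraries alone, part or all of which may be technical.

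Ribosomes consist of a small subunit, which reads the mRNA, and a large subunit, which forms peptide bonds, each built from ribosomal RNA and a fixed set of proteins made in matched amounts. Most mRNAs of these proteins start with a run of pyrimidines, the terminal oligopyrimidine (TOP) tract, through which the kinase mTOR and the RNA-binding protein Larp1 set their translation and stability. In T cells this set rises with growth and division. The genes have many processed pseudogenes with near-identical sequence, so the reads of a gene can be divided between copies and the level of any single gene is uncertain.

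The expression unit is FPKM, in which fragments are divided by the transcript's length and the library's mapped total, and the read depth behind it is unknown. Differences are given as cKO minus YFP+ on the log2(FPKM + 1) scale, and a gene was called when the adjusted p of the limma test over all genes was under 0.05. Because of the pseudocount of 1, differences of genes at low levels come out too small. The tables of the 2 tissues were normalized separately. Their deposited names call the thymus table paired and the liver table single. Tissue can therefore not be told apart from table, nor from read layout if the names refer to it. Liver titles and column headers name one mouse and the description field the other. Liver groups here follow the titles, and all liver signs turn around should the description field be right. Rag2, the deleted gene, was listed at 0 in the 3 liver cKO libraries and at 0.985 to 1.365 FPKM in the liver YFP+ libraries, but at 0 in 5 of 6 thymus libraries, where it does not check the labels. The T cell marker Cd3e was at 292 FPKM or more in every library. The globin-led erythroid markers stood apart in cKO replicate 1 of the thymus, at a sum of 107.6 FPKM, while the other thymus libraries reached 14.3 FPKM at most. The stress gene Hspa1a was at 528 ± 379 FPKM in thymus cKO and at 5.67 ± 0.769 in thymus YFP+ (mean ± SD, n = 3, as throughout).

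Promoter sequences are shown for 7 genes on which the comparisons below turn. Rpl11, Rpl26 and Rpl41 were called lower in both tissues, Rpl28 was among the genes with the largest thymus decrease, Rpsa and Rps10 differed between the tissues, and Rpl35 was higher relative to the rest of the set in liver cKO. Sequences are from RefSeq on build GRCm38.p6 and were matched by symbol, since the deposited values were made on mm9. Each runs 5′ to 3′ on the gene's strand from 60 bases before the annotated start to 20 bases after it. Capitals mark CCGGAAG, the core letters bound by ETS-family factors, and CTTTCC, a pyrimidine run like those at TOP starts, where they lie in the sense direction.
Rpl11, chr4:136053374-136053453, minus strand: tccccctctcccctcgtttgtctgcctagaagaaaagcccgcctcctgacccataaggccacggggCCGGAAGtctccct
Rpl26, chr11:68901506-68901585, plus strand: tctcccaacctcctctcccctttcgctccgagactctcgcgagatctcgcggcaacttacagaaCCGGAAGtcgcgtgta
Rpl41, chr10:128549149-128549228, minus strand: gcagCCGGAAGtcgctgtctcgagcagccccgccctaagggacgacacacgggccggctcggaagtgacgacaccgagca
Rpl28, chr7:4792905-4792984, plus strand: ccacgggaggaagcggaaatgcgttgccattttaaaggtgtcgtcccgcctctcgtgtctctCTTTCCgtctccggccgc
Rps10, chr17:27635225-27635304, minus strand: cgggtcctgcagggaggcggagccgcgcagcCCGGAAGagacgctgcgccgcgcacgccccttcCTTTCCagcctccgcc
Rpl35, chr2:39005112-39005191, minus strand: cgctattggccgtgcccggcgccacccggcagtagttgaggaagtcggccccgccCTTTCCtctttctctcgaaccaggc
Rpsa, chr9:120127706-120127785, plus strand: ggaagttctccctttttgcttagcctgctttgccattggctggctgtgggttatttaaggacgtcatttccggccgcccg

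A promoter entry was found for 64 of the 86 genes. In the full entry, from 250 bases before to 50 after the start and on both strands, CTTTCC was present for 35 of the 64 genes (54.7%) and for 29.3% of all 27025 genes with an entry. CCGGAAG was present for 25 (39.1%) against 9.93% of all genes. GATGGC, the core letters of YY1 sites, was present for 15 (23.4%) against 15.9%. In the sense direction only, from 30 bases before to 50 after the start, CTTTCC was present for 19 (29.7%) against 4.36% of all genes. Matches of different motifs can overlap at their ends, and a match describes the letters and no binding. Split by the liver result given below, CTTTCC was present in the full entry for 17 of 27 genes called lower and 16 of 34 not called. CCGGAAG was present for 12 of 27 and 12 of 34, and GATGGC for 10 of 27 and 5 of 34.

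Ribosomal protein mRNA was abundant in every library. Of the 86 genes, 82 were at or above 1 FPKM in every library. In the thymus the highest mean levels were those of Rpl41, a very short peptide of the large subunit, at 1270 FPKM, of Rpl13 at 1203 FPKM and of Rps19, the gene most often mutated in Diamond-Blackfan anaemia, at 786 FPKM. The lowest tested were Rps19bp1 at 7.87, Rps15a at 8.72 and Rps29 at 15.5 FPKM. In the liver Rpl41 was again highest at 7504 FPKM, followed by Rpl32 at 5295 and Rps19 at 5056 FPKM, and the lowest tested were Rps4y2 at 4.02, Rps19bp1 at 18.7 and Rps27l at 132 FPKM. Rps29, a zinc-finger protein of the small subunit, was 80th of the 86 genes in the thymus and 4th in the liver. These ranks come from the 2 separate tables, so tissue and table cannot be told apart in them. The order of the mean levels in the 2 tables had a Spearman rho of 0.60 across the 82 genes tested in both tissues. This is a description only, since genes are not replicates and each table shares its libraries and its length scaling.

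The set took a smaller part of the library in thymus cKO cells, and in the liver its part overlapped between the origins. In the thymus the genes held 10.2, 10.8 and 10.8% of the summed FPKM in cKO and 11.4, 11.2 and 11.4% in YFP+. The groups did not overlap, and the summed level was 20345 ± 578 against 23223 ± 971 FPKM, a ratio of 0.876. In the liver the genes held 28.5, 28.0 and 28.6% in cKO and 30.1, 28.4 and 27.0% in YFP+. These groups overlapped, with the YFP+ libraries lying on both sides of cKO. The liver sum was 129760 ± 3568 against 153425 ± 15231 FPKM, a ratio of 0.846, while the ratio of the sums over all genes was 0.850. No test was made of these sums. In bulk RNA, fewer cells of a type and less RNA per cell cannot be told apart.

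**Figure D1:**
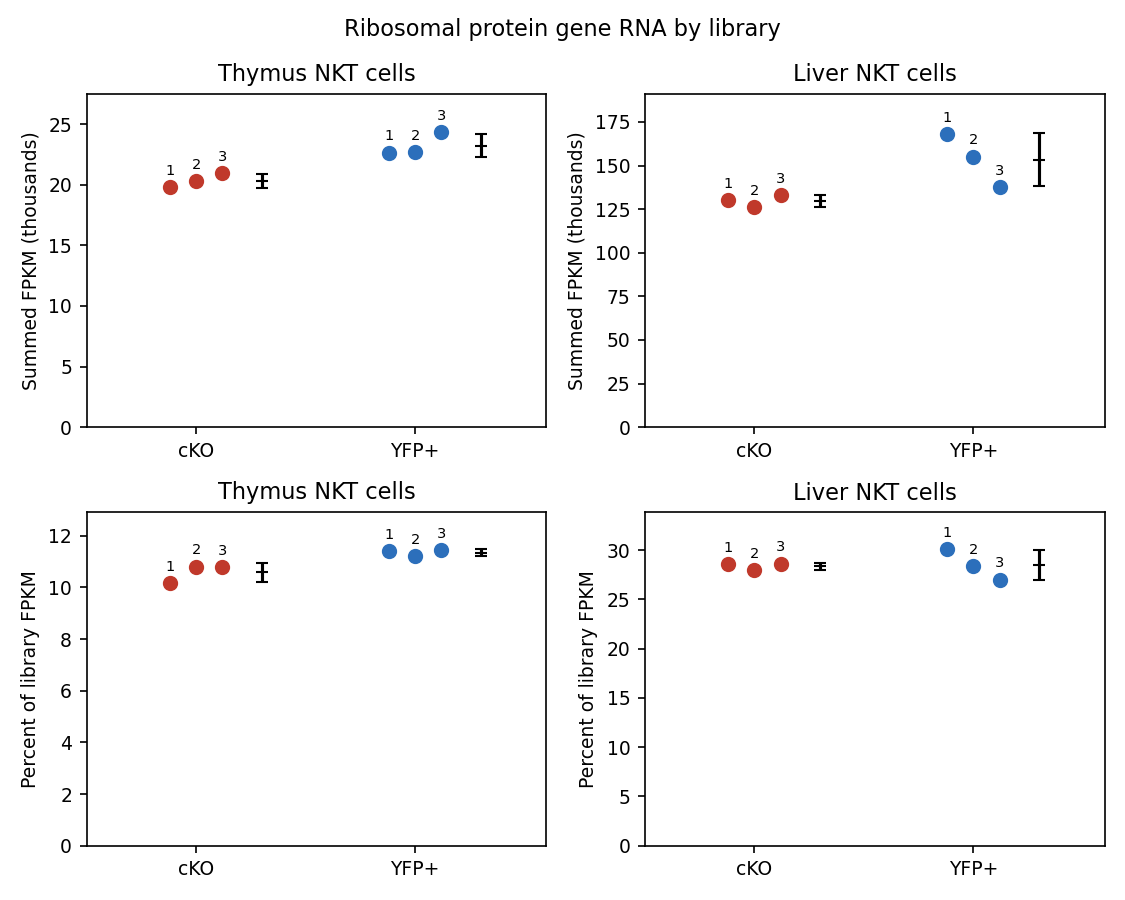
Summed FPKM of the 86 genes (top) and their percent of all FPKM of the library (bottom), for thymus (left) and liver (right). Points are libraries with their replicate number and the bar is the mean with SD (n = 3). In the thymus both quantities are lower in all 3 cKO libraries, and in the liver the percent of the 3 YFP+ libraries runs from 27.0 to 30.1 around the cKO values.

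In the thymus, 18 of 82 tested ribosomal protein genes (22.0%) were called lower in cKO and 0 higher, where 13.1% of all 9097 tested genes were called lower and 2.64% higher. The median difference was -0.20 over the 82 genes and -0.16 over all genes tested. In 60 of the 82 (73.2%) every cKO library lay below every YFP+ library, against 37.6% of all genes, and in 0 every cKO library lay above, against 5.34%. At an unadjusted p under 0.05 there were 45. The share of all genes at that level was not counted, here or for the later counts of this kind. Such counts therefore do not set these genes apart from the rest. Only Rpl12 (0.03) and Rps19bp1 (0.04) had positive differences, and neither passed.

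Of the small subunit 5 of 31 were called lower in the thymus, and of the large subunit 13 of 43. Rps26, which lines the mRNA exit channel, was at 121, 128 and 135 FPKM in cKO and at 163, 161 and 184 in YFP+. Its groups did not overlap, and it fell by 0.40 ± 0.08 (SE, limma adjusted p = 0.0161). Rps3a (-0.31), Rps23 (-0.28), at the decoding centre, Rps9 (-0.28) and Rps13 (-0.27) also passed. In the large subunit, Rpl28 was at 74.7, 75.3 and 79.0 FPKM in cKO and at 94.6, 98.2 and 104.3 in YFP+, and fell by 0.37 ± 0.07 (limma adjusted p = 0.0129). Rpl41 was at 1119, 1071 and 1147 FPKM against 1371, 1360 and 1551, again without overlap, and fell by 0.36 ± 0.07 (limma adjusted p = 0.0192). Rpl36 (-0.34) and Rpl36a (-0.33) followed. None of the 3 stalk proteins, which recruit the GTPases of translation, passed: Rplp0 differed by -0.10, Rplp1 by -0.20 and Rplp2 by -0.15.

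These thymus calls moved with the scaling of the libraries. The median of all genes was at -0.16 as deposited and at -0.04 after rescaling by median ratios, and the ribosomal protein genes then had a median of -0.04 as well. Under that rescaling 0 of 82 were called lower, where limma called 4.64% of all genes lower and 4.04% higher, and 9 of the 82 had an unadjusted p under 0.05. With libraries rescaled to one sum of FPKM, Rpl28, Rpl36a, Rpl41, Rps26 and Rps3a were called lower (6.10% of the 82), where 7.09% of all genes were lower and 3.14% higher. Without the cKO library that held most erythroid RNA, 15 (18.3%) were called lower, against 22.6% of all genes. Leaving out single other libraries left 1 to 4 (1.22 to 4.88%) called lower, against 3.73 to 5.38% of all genes, the fewest without YFP+ replicate 3.

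In the liver, 33 of 83 tested ribosomal protein genes (39.8%) were called lower in cKO and 0 higher, where 19.7% of all 9591 tested genes were lower and 7.49% higher. Of the 33, 1 is Rps19bp1. The median difference was -0.26, against -0.11 over all genes tested. The groups did not overlap, with cKO lower, in 58 genes (69.9%) against 29.6% of all genes, and with cKO higher in 0 against 14.7%. The genes of both subunits shared this: 11 of 31 small-subunit and 18 of 43 large-subunit genes were called lower, with medians of -0.24 and -0.26. None of the 3 stalk genes passed, and Rplp1 was at -0.26.

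Rpsa, a small-subunit protein first known as a laminin receptor precursor, was at 1218, 1206 and 1251 FPKM in the cKO libraries of the liver, against 1881, 1770 and 1604 in YFP+. All cKO libraries were lower, and the gene fell by 0.51 ± 0.08 (limma adjusted p = 0.00271). Rps3, which lies at the mRNA entry channel, was at 1081, 1092 and 1132 against 1623, 1494 and 1400 FPKM and fell by 0.45 ± 0.07 (limma adjusted p = 0.00427). Rps21 (-0.45) and Rps10 (-0.43) were also called lower. In the large subunit the leading decreases were those of Rpl34 (-0.48), Rpl27a (-0.47) and Rpl41 (-0.45). Rpl41, the highest gene of the set, was at 6257, 6069 and 6629 FPKM in cKO and at 9604, 8744 and 7721 in YFP+. Rpl11, which binds 5S ribosomal RNA and the p53 regulator Mdm2, was at 1034, 990 and 1028 against 1440, 1327 and 1193 FPKM and fell by 0.37 ± 0.08 (limma adjusted p = 0.0126). Its partner Rpl5 was at 539, 523 and 515 against 644, 588 and 511 FPKM, with overlap, and its difference of -0.14 did not pass. Rps6, the substrate of S6 kinase, was at -0.20 in both tissues and passed in neither. Rps27a, made as a fusion with ubiquitin, passed in the liver (-0.34) and not in the thymus (-0.19). At an unadjusted p under 0.05 there were 58. Positive values in the liver were those of Rps2, Rpl13, Rpl35 and Rpl7l1, and none passed. Rps2 was at 259 FPKM in YFP+ replicate 1 and at 963 and 863 in the other 2, while cKO was at 603, 730 and 685.

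**Figure D2:**
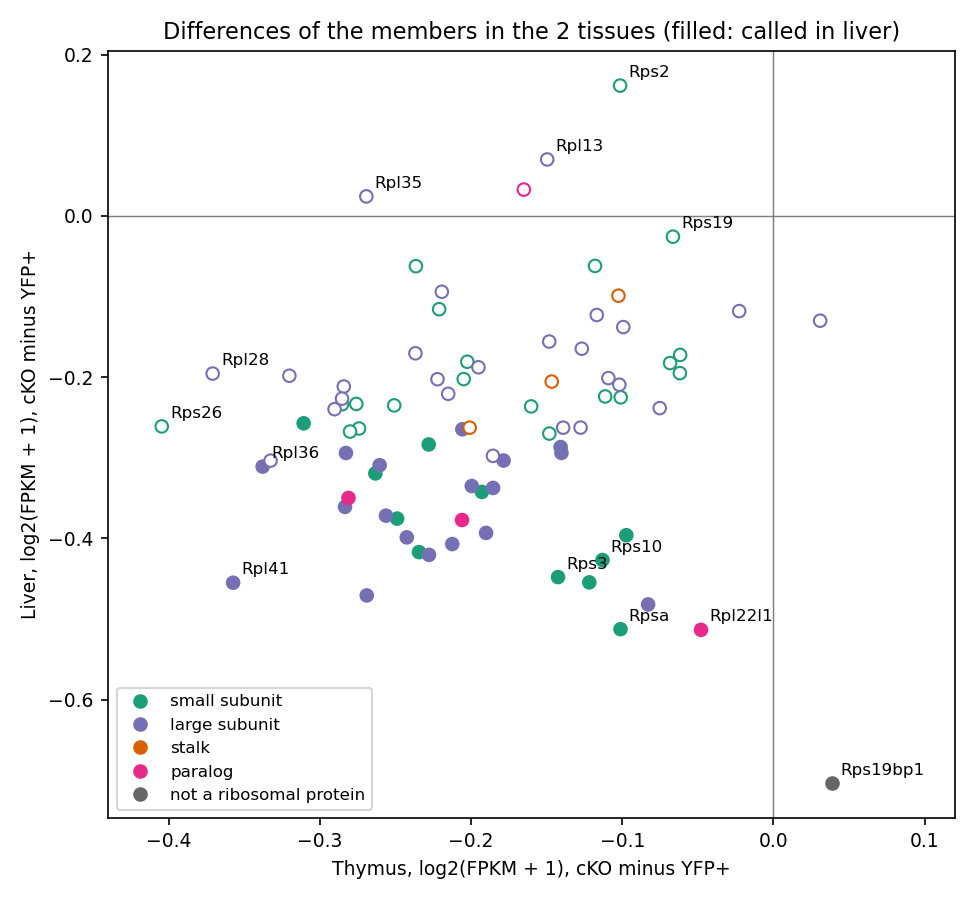
Difference in log2(FPKM + 1), cKO minus YFP+, in the thymus (horizontal) and the liver (vertical) for the 82 genes tested in both tissues, coloured by role, with filled points for genes called in the liver. Negative values in both tissues were seen for 76 of the 82 genes (92.7%) and for 52.8% of all genes tested in both, a count that is 4 of 82 if the liver groups follow the description field, and Rpsa, Rps10, Rps3 and Rps19bp1 lie low in the liver and near the other genes or above them in the thymus.

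The liver libraries also differed in markers of other cells, whose part in these results was not tested. Of the erythroid list 4 of 4 tested genes were lower in cKO, with a summed level of 9.82 to 15.0 FPKM in cKO and 641 to 742 in YFP+. The DP thymocyte list was at 12.7 to 14.8 against 63.4 to 68.6 FPKM (4 of 4 tested lower), and the B cell list at 1.92 to 3.34 against 10.4 to 11.7 (2 of 2). The myeloid list was at 26.2 to 30.8 against 59.5 to 84.8 FPKM (1 of 3 lower), and the hepatocyte list at 12.6 to 16.7 against 37.6 to 43.1 (1 of 2), with albumin at 0.059 FPKM or less in every liver library. In the thymus the DP list was at 5.95 to 7.60 in cKO against 11.9 to 16.7 FPKM in YFP+ (2 of 2 lower), and Cd8a was at 0.015 FPKM or less. The hepatocyte list was at 4.33 to 6.27 against 26.2 to 30.4 FPKM there (1 of 1 tested lower), with albumin at 0.294 FPKM or less, and the T and NKT list at 1076 to 1095 against 1288 to 1447 (3 of 7 lower). In the liver the T and NKT list was at 2975 to 2995 FPKM in cKO against 3051 to 3460 in YFP+ (1 of 7 lower and 2 higher).

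Rescaling moved the liver calls as well. By median ratios the median of all genes moved to -0.02 and that of the ribosomal protein genes to -0.15. Rpl27a (-0.36), Rps10 (-0.32), Rpsa (-0.40) and Rps19bp1 (-0.60) were then called lower, 4.82% of the 83 against 11.0% of all genes, and 0 higher against 10.5%. With libraries at one sum of FPKM, 7 genes (8.43%) were lower and 4 (4.82%) higher, against 7.66% and 13.8% of all genes. The 7 were Rpl27a, Rpl34, Rpl41, Rps3, Rps14, Rps21 and Rpsa, and the 4 were Rpl13, Rpl35, Rps19 and Rps25. Single libraries weighed on the count as well. Without YFP+ replicate 3, which had the lowest sum of its group, 71 genes (85.5%) were called lower, against 19.4% of all genes. Without YFP+ replicate 1 there were 28 (33.3%), against 21.0%. Without 1 of the other libraries there were 7 to 13 (8.43 to 15.7%), against 11.4 to 13.9% of all genes.

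**Figure D3:**
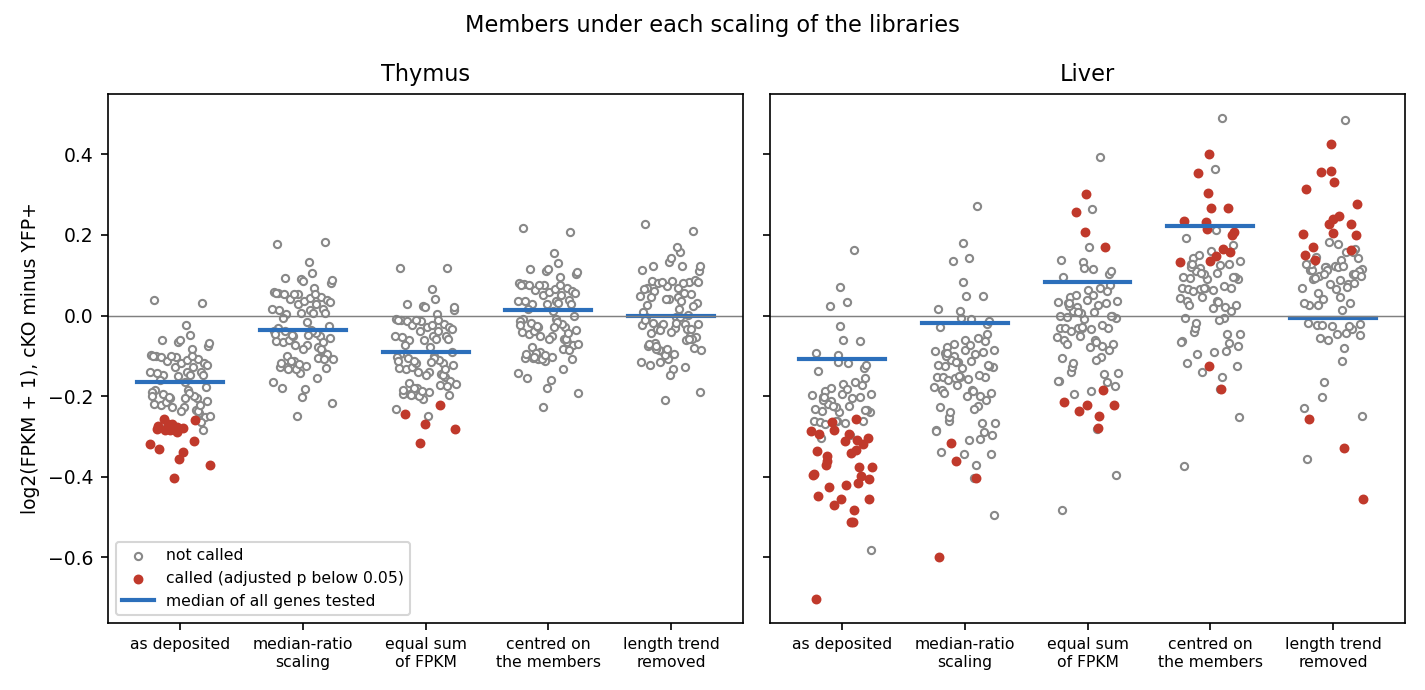
Difference in log2(FPKM + 1), cKO minus YFP+, of each tested ribosomal protein gene in the thymus (left) and the liver (right) under 5 treatments of the libraries. Red points were called at a limma adjusted p under 0.05, open points were not, and the blue line is the median of all genes tested. In the thymus red points are seen as deposited (18) and with equal sums (5), and in the liver red points lie below 0 as deposited and on both sides of 0 with equal sums.

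The makeup of the set itself differed between the origins in the liver. Each library was centred on the median level of its ribosomal protein genes, which asks which of them changed relative to that level. This does not bring the median of their differences to 0. In the liver that median was 0.069, with 59 of 83 genes positive, so the counts there lean towards increases. In the liver 15 genes (18.1%) were then relatively higher in cKO and 2 (2.41%) relatively lower, where 11.5% and 3.08% of all genes were higher and lower. The leading relative increases were those of Rpl13 (0.40), Rpl35 (0.35), Rps19 (0.30), Rps25 (0.27), Rps12 (0.27), Rpl32 (0.24) and the stalk base Rplp0 (0.23). The 2 relative decreases were those of Rpsa (-0.18) and Rpl41 (-0.12). In percent of the summed ribosomal protein FPKM, which needs no scaling of the libraries, Rpl35 held 3.09 ± 0.0402% in cKO and 2.58 ± 0.0646% in YFP+, and Rps19 3.85 ± 0.0669% against 3.33 ± 0.0901%. Rpl41 held 4.87 ± 0.0983% against 5.66 ± 0.0556%, and Rpsa 0.944 ± 0.0116% against 1.14 ± 0.0229%. Rpl13 held 3.18 ± 0.0823% against 2.59 ± 0.395%. In the thymus 0 genes passed when the libraries were centred in this way (limma), and 9 had an unadjusted p under 0.05. There Rpl41 held 5.47 ± 0.186% in cKO against 6.14 ± 0.203%, and Rpsa 3.50 ± 0.171% against 3.29 ± 0.133%.

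Both tissues together gave 8 genes called lower in each, Rpl11, Rpl26, Rpl27, Rpl27a, Rpl36, Rpl39, Rpl41 and Rps3a. They are 9.76% of the 82 genes tested in both, where 3.83% of all 8372 such genes were called lower in both, and 44.4% of the thymus calls and 24.2% of the liver calls. Of the 8, Rpl41 was called lower in each tissue also with libraries at one sum of FPKM (-0.27 in the thymus and -0.22 in the liver). With liver groups by the description field, 0 genes would be lower in both. Rpl39, which lines the peptide exit tunnel, was at 155, 168 and 168 against 199, 197 and 202 FPKM in the thymus and at 1123, 1100 and 1094 against 1641, 1453 and 1201 in the liver, with no overlap in either.

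The difference between the tissues was tested in 1 fit over all 12 libraries. Each tissue has its own table, so tissue and table cannot be told apart in this fit. Of 83 genes 4 (4.82%) had a more negative difference in the liver and 0 a less negative one, where 5.91% and 9.14% of all 9739 genes did. Rpsa was at 674, 749 and 711 against 765, 759 and 763 FPKM in the thymus (-0.10, not called) and fell in the liver, and the 2 differences were -0.41 ± 0.09 apart (limma adjusted p = 0.0128). Rps10, whose ubiquitination marks stalled ribosomes, was at -0.11 in the thymus and -0.43 in the liver, -0.31 apart (limma adjusted p = 0.0431). Rps3 was -0.31 apart (limma adjusted p = 0.0482). Rps19bp1, the gene that is no ribosomal protein, was at 7.78, 8.09 and 8.10 against 7.55, 8.07 and 7.62 FPKM in the thymus and at 16.0, 12.9 and 12.8 against 18.3, 29.4 and 22.9 in the liver, -0.74 ± 0.20 apart (limma adjusted p = 0.0272). Rpsa, Rps10 and Rps19bp1 passed again after median-ratio rescaling, and Rps3 did not. For no other gene of the set did the difference between the tissues pass as deposited. With liver groups by the description field 67 of 83 genes (80.7%) would be called higher in the liver than in the thymus and 0 lower, against 28.5% and 6.31% of all genes, and Rpsa would stand at 0.61. With libraries at one sum of FPKM Rpsa alone of the 4 passed (-0.27). Under that scaling 6 of 83 genes were called with a less negative difference in the liver, Rpl35 (0.44) foremost, and 1 with a more negative one. Of all 9735 genes, 1469 were called in the first direction and 380 in the second.

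The paralogs were read beside their partners. Rpl22, which αβ T cell development needs and which represses its paralog Rpl22l1, was at 174, 159 and 160 FPKM in the cKO libraries of the liver, against 256, 215 and 183 in YFP+ (-0.39, limma adjusted p = 0.0416). Rpl22l1 was at 282, 272 and 277 against 474, 379 and 344 FPKM, and fell by 0.51 ± 0.11 (limma adjusted p = 0.0123). Both were thus lower in liver cKO, and both lost their call under median-ratio rescaling. In the thymus Rpl22 was at -0.19 and Rpl22l1 at -0.05, and neither passed. Rps27l, a p53-inducible relative of Rps27, passed in the liver (-0.35) as did Rps27 (-0.40), and Rpl36al passed (-0.38) while Rpl36a (-0.30) did not. Rpl7 passed in the liver (-0.26), and Rpl7l1 was at 140, 136 and 143 against 131, 127 and 153 FPKM with overlap. Rpl10 passed in the liver (-0.29). Rpl10l, which replaces it in male germ cells, and Rpl3l, the muscle form of Rpl3, reached 0.203 FPKM at most in any library. Rpl39l reached 1.40 FPKM and was below the tested level in both tissues. Rpl3 itself was at -0.20 in the thymus and -0.19 in the liver and passed in neither. Rps4y2 was tested in the liver only (-0.58, not called), and its partner Rps4x was at -0.225 there.

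Other genes of the translation machinery were read from lists. Beyond the symbols of the rule, Fau, whose product yields Rps30, was called lower in the thymus (-0.28) and the liver (-0.37). Gnb2l1, the scaffold Rack1, was called lower in the liver (-0.23) and did not pass in the thymus. The shares of all genes called lower, 13.1% in the thymus and 19.7% in the liver, stand as background to these lists. Of 31 initiation factors 5 were called lower in the thymus and 14 in the liver, with 0 higher, and Eif5a (-0.80) and Eif4a1 (-0.52) led in the liver. Of 8 elongation and termination factors, Eef1a1 was called lower in both tissues (-0.27 and -0.55). Eef2, which moves the ribosome along the mRNA and has a TOP mRNA itself, was higher in liver cKO, at 621, 626 and 639 against 387, 430 and 460 FPKM (0.56, limma adjusted p = 0.00198). Of 18 other TOP mRNAs 6 were called lower in the thymus, and 8 lower and 1 higher in the liver, with medians of -0.23 and -0.22. After median-ratio rescaling 0 and 3 initiation factors, and 0 and 3 TOP mRNAs, were called lower in the 2 tissues.

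Host genes of small nucleolar RNAs, whose spliced RNAs also begin with pyrimidines, were lower in liver cKO in 8 of 8 cases, with a median of -0.60, and 6 of 8 passed after median-ratio rescaling. Snhg5 was at 56.4, 59.0 and 62.0 against 104.7, 106.7 and 98.5 FPKM (-0.79). In the thymus 1 of the 8 was lower and 2 were higher, Snhg12 (0.72) and Snhg1 (0.32). Of 35 biogenesis factors 12 were called lower in the liver and 0 in the thymus, where Bysl (0.37) was higher, and after median-ratio rescaling 6 were lower and 3 higher in the liver and 2 higher in the thymus. Of the mitochondrial ribosomal protein genes 7 of 75 were called lower in the thymus, and 38 of 76 were lower and 1 higher in the liver, with a liver median of -0.39 and Mrpl9 (-0.94) in the lead. Median-ratio rescaling left 4 called lower in the thymus, and 18 lower and 1 higher in the liver. Among 14 regulators of growth tested in the liver, 3 were called higher and 1 lower, where 7.49% and 19.7% of all genes were. Myc was at 22.8, 20.2 and 21.4 FPKM in the liver cKO libraries, against 8.63, 9.99 and 11.4 in YFP+ (1.03, limma adjusted p = 0.000793). Its partner Max was lower (-1.02). Rptor, a subunit of the mTOR complex, was higher there (0.89), and in the thymus limma called 0 of 15 regulators as deposited and 2 higher after median-ratio rescaling. Of cell cycle genes, 5 of 11 were called lower in the thymus, and 11 of 16 were lower and 1 higher in the liver, where Ccnb1 was at -2.18. Median-ratio rescaling left 2 of the cell cycle genes called lower in the thymus, and 10 lower and 1 higher in the liver.

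**Figure D4:**
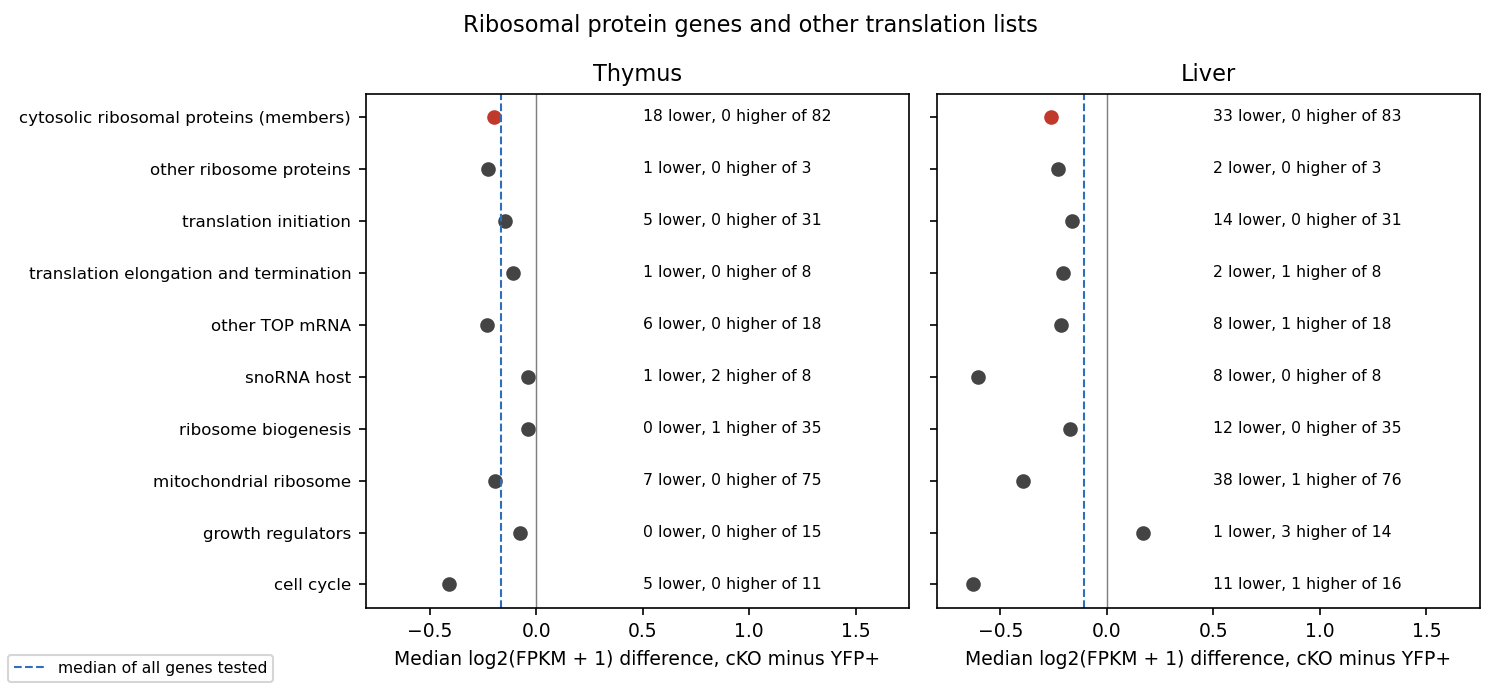
Median difference in log2(FPKM + 1), cKO minus YFP+, over the tested genes of the ribosomal protein set and 9 other translation, growth and cell cycle lists in the thymus (left) and the liver (right), with the number called lower and higher beside it. The dashed line is the median of all genes tested, at -0.16 and -0.11. The ribosomal protein genes (red) lie close to that line in the thymus, and in the liver the small nucleolar RNA hosts (-0.60) and cell cycle genes (-0.63) lie lowest of those drawn, which leave out the cell type markers.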

How the data were processed

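RNA of 12 sorted NKT samples was measured. The authors deposited FPKM, 1 table per tissue, made with TopHat2 (2.8.0 as written) and Cufflinks 2.1.1 on mm9, per the submitters' processing notes. Per the labels' protocols cDNA was made with SMARTer Ultra Low Input reagents and libraries with TruSeq or ThruPLEX reagents. The kit of each library and the use of strand are not given in the sources used here. FPKM are relative values: RNA abundant in 1 library lowers its other genes, and transcript integrity shifts short genes against long ones. Groups follow the titles, and 0 columns of values were left unmapped. No interval from counts can be given, since depth is unknown.

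The test was limma-trend (limma 3.58.1, R 4.3.3) on log2(FPKM + 1), fitted on all genes whose mean reached 1 FPKM and adjusted over them by Benjamini-Hochberg at 0.05, per tissue and for the difference between tissues. It was tested on simulated data. Of the 86 genes, 4 in the thymus and 3 in the liver were below the tested level. Alternatives were a pseudocount of 0.1, no filter on low values, median-ratio scaling, one sum of FPKM, centring on the set, a replicate block, leaving out each library and, chosen after seeing the data, removal of the trend with transcript length (median length of GENCODE M21 transcripts) and liver groups by the description field. The text names, per tissue and subunit, the 4 called genes with the largest change, the 3 highest and 3 lowest genes, the 3 with the smallest p between tissues, and fixed members and paralogs. Rps2, Rps12, Rps13, Rps14, Rps25, Rpl12, Rpl26, Rpl27 and Rpl35 were named after their values were seen. From other lists up to 3 called genes are named. The members and lists were chosen with earlier results of these data known.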

Additional observations from a re-analysis of the deposited data

Results flagged for a closer look

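The difference between cKO and YFP+ cells was not the same in thymus and liver for 4 genes, by limma's test of the interaction of origin and tissue over 12 libraries (adjusted p under 0.05). The liver difference was lower than the thymus difference by -0.41 for Rpsa, by -0.74 for Rps19bp1, by -0.31 for Rps10 and by -0.31 for Rps3 on the log2(FPKM + 1) scale. The share of genes passing this test in that direction was 5.91% over all genes, and the members' share was 4.82%. Rpsa was the only 1 of the 4 that also passed with the replicate block, and with no filter on low values. If the liver groups follow the description field, the differences turn to 0.61 for Rpsa, 0.66 for Rps19bp1, 0.54 for Rps10 and 0.59 for Rps3, and 67 of 83 genes pass as higher.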

How the results depend on the processing

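The number of ribosomal protein genes called lower in cKO (18 in the thymus, 33 in the liver, 4 for the difference between tissues) was within 1.5 times the same with a pseudocount of 0.1. It was 3, 10 and 1 when low values were kept in, 0, 4 and 3 with median-ratio scaling, 5, 7 and 1 with one sum of FPKM, 0, 2 and 0 with centring, and 0, 3 and 1 with the length trend removed. With low values kept in, 86 genes of the set were tested, and all genes called lower were 601 of 21737, 1483 of 19464 and 620 of 22196. They were 326 of 9097, 295 of 9591 and 230 of 9739 with centring. With the length trend removed they were 369 of 8988, 846 of 9458 and 566 of 9613. With median ratios they were 639 of 9721 for the difference. Leaving out 1 library gave 1 to 15 in the thymus, 7 to 71 in the liver (71 without YFP+ replicate 3) and 1 to 7 for the difference, with 0 to 1 called higher there. For the difference, all genes called lower then ran from 373 of 9754 to 662 of 9721. All genes called higher ran from 574 of 9739 to 1085 of 9706. Genes of the set called higher went from 0 to 4, 15 and 17 of 83 in the liver with one sum, centring and the length trend removed. For the difference they went from 0 to 6, 5 and 7 of 83. All genes called higher were then 1323 of 9604, 1103 of 9591 and 921 of 9458 in the liver. For the difference they were 1469 of 9735, 741 of 9739 and 600 of 9613. The median difference of the ribosomal protein genes was -0.042, -0.108, -0.020 and -0.0078 in the thymus with median ratios, one sum, centring and the length trend removed. With the last 3 of these it was -0.028, 0.069 and 0.102 in the liver and 0.078, 0.083 and 0.108 for the difference. With liver groups by the description field, chosen after seeing the data, 33 would be higher and 0 lower in the liver (median 0.26), and 67 higher and 0 lower for the difference (median 0.48). The ratio of summed FPKM was 0.933 in the thymus and 0.996 in the liver with one sum of FPKM.

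The liver difference was positive for 4 genes of the set as deposited, for 34 with one sum, 59 with centring and 61 with the length trend removed. The share of all genes with a positive difference was not counted, so these counts do not set the ribosomal protein genes apart. The liver median of all genes was -0.11, 0.083, 0.22 and -0.0074 in the same order. Among the named genes that were called in at least 1 of the fits compared, 15 turned in sign. A turned sign alone does not show a rise relative to the set. The liver median of the set was itself 0.069 with centring, above Rpl10, Rpl36 and Rpl7, and 0.102 with the length trend removed. With centring the liver difference was 0.043 for Rpl10, 0.24 for Rpl32, 0.019 for Rpl36, 0.065 for Rpl7, 0.23 for Rplp0, 0.30 for Rps19, 0.14 for Rps29 and 0.073 for Rps3a. With the length trend removed it was 0.067 for Rpl10, 0.32 for Rpl32, 0.12 for Rpl36, 0.030 for Rpl36al, 0.027 for Rpl39, 0.041 for Rpl7, 0.15 for Rplp1, 0.36 for Rps19, 0.030 for Rps27, 0.013 for Rps27a, 0.055 for Rps27l, 0.24 for Rps29, 0.070 for Rps3a and 0.14 for Rps6. With one sum of FPKM it was 0.21 for Rps19, the 1 such named gene that was called. The cause was not tested. The labels do not say what a replicate number shares, and same-numbered libraries of a tissue correlated at -0.0634 to 0.0659 in their deviations, so the numbers were not taken as pairs. With the replicate block 10 of 82, 21 of 83 and 1 of 83 genes were called lower in the thymus, the liver and for the difference. All genes called lower were then 614 of 9097, 1614 of 9591 and 447 of 9739.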
